A study of Mus musculus with 4 samples.

Results

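The 39 genes described here encode the machinery that copies DNA. They were chosen by symbol, and each of the 39 symbols matched 1 row among the 33696 genes of the expression matrices. The rule itself uses no expression value, although the list was drawn up with earlier results of these data known. They fall into 8 roles: licensing and helicase (Mcm2 to Mcm7, Cdc6, Cdt1, Cdc45, Gins1 and Gins2), entry to S phase (Ccne1, Ccne2 and Cdc25a), polymerases with the sliding clamp and its loaders (Pola1, Prim1, Pole, Pold1, Pcna, Rfc2, Rfc3, Rfc4, Rfc5 and Rpa2), joining of the lagging strand (Fen1 and Lig1), fork protection (Clspn and Tipin), partners of the clamp (Pclaf and Dtl), nucleotide supply and uracil removal (Rrm1, Rrm2, Dut and Ung), and chromatin and cohesion (Chaf1a, Chaf1b, Hells, Slbp and Esco2). In the cells that passed the filters below, the 39 genes gave 1167765 of 439004038 unique molecular identifiers (UMIs, each a tag for 1 captured RNA molecule).

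As background, replication starts where the MCM helicase is loaded by Cdc6 and Cdt1 in G1 and is switched on with Cdc45 and the GINS complex at the start of S phase. Pola1 and Prim1 belong to the complex that makes primers, Pole and Pold1 extend the strands, and Pcna is the ring that holds polymerases on DNA. E2F transcription factors, released from the retinoblastoma protein in part by cyclin E and Cdk2, activate most of these genes together late in G1. In marrow, stem cells divide rarely, granulocyte and monocyte progenitors divide fast, and maturing neutrophils leave the cell cycle for good.

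RefSeq promoter sequences of assembly GRCm38.p6 were matched by symbol for 31 of the 39 members, each 250 bases before to 50 bases after an annotated start. They were searched on both strands for the E2F consensus in 4 forms, TTTCCCGC, TTTCGCGC, TTTGCCGC and TTTGGCGC, which can overlap one another where 2 sites face each other. At least 1 form was held by 15 of the 31 members (48.4%) in any of their annotated promoters, and by 2.605% of 27025 genes with a promoter of the same length. The median GC content was 63% over the member promoters and 52.7% over all promoters, and its part in this difference was not tested. The windows below belong to some of the members named in the later results, all of them with a match. Mcm6, Hells and Pola1 were the 3 members with the lowest ratio of cells high for mitosis genes only over cells high for replication genes only. Cdc25a was highest in early neutrophils, Mcm5 was among the members compared between libraries, and Pclaf stayed high in cells expressing mitosis genes. Dut, Rrm1, Rrm2, Ung, Pcna, Slbp, Cdc45, Ccne1, Fen1, Rpa2 and Chaf1b, also named in the later results, held no match in their promoters. Each window is written 5′ to 3′ on the strand of its gene, with the E2F match in capitals. The windows were chr1:128359706-128359805 (minus strand), chr19:38930890-38930989 (plus strand), chrX:93632244-93632343 (minus strand), chr9:109875479-109875578 (plus strand), chr8:75109310-75109409 (plus strand) and chr9:65890223-65890325 (plus strand), all in GRCm38.p6.
Mcm6: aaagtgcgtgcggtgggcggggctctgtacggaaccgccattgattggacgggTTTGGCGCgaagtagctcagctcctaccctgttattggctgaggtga
Hells: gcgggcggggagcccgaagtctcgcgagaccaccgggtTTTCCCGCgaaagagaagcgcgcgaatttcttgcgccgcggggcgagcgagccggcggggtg
Pola1: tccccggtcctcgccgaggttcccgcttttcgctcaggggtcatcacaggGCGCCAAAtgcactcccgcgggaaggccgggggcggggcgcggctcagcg
Cdc25a: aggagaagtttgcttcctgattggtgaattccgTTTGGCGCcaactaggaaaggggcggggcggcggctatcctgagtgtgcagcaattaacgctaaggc
Mcm5: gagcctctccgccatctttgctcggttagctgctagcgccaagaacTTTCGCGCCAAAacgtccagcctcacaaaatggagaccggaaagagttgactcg
Pclaf: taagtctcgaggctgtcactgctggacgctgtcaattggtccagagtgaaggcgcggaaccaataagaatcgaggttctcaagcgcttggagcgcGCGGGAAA
Mcm6 held 3 matches in its whole promoter, and the window shows the one nearest to the start, which began 47 bases before it. The match began 62 bases before the start in Hells, 138 in Pola1, 67 in Cdc25a and 5 in Pclaf. In Mcm5 a pair of matches on opposite strands overlapped, beginning 153 and 149 bases before the start. A match is a description of these letters and not a site shown to be bound.

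The RNA came from mouse bone marrow. Lethally irradiated mice had received CD45.1+ Tet2+/+ and CD45.2+ Tet2+/- marrow in equal parts, and the libraries hold the sorted live CD45.2+ cells, so the cells of all 4 groups are Tet2+/- and the Tet2+/+ donor cells were sorted away. Tet2 encodes an enzyme that oxidises methylated DNA and is often mutated in clonal blood disorders. After 1 month of engraftment the mice were treated for 7 months. The Control group had injections of PBS and drinking water with 100 mM NaCl, the Butyrate group PBS and 100 mM sodium butyrate (the salt of a fatty acid that gut bacteria release), the B12 group 0.29 µg of vitamin B12 per injection and 100 mM NaCl, and the B12+Butyrate group both. Each group is 1 library made from the frozen marrow of 3 pooled mice, with Kit+ and Kit- cells mixed in equal parts after the sort, so progenitors are enriched and shares over all cells partly reflect that mix. With 1 library per group there is no replicate check: no test between groups was possible, and every interval below is a 95% interval for counting error only.

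The filter asked for 500 genes and 1000 UMIs or more per barcode, with no more than 10% of UMIs from mitochondrial genes. It kept 8752 of 9688 barcodes in Control, 6793 of 7932 in Butyrate, 8048 of 8980 in B12 and 7616 of 8070 in B12+Butyrate. Median depth was 11583.5 to 12544.5 UMIs per kept cell, and the members took 0.257% to 0.285% of the UMIs of a library. Of the barcodes, 93 occurred in more than 1 library. A list of genes induced by handling and dissociation had a median of 26.6 UMIs per 10000 in Control, 32.5 in Butyrate, 29.6 in B12 and 28.4 in B12+Butyrate. Cells were put into 17 classes by gates on marker UMIs, none of them from a member, and 1047 cells that met several gates and 391 that met none were left out of the classes. The gate levels were set after the distributions of the markers had been seen, and a gated class is a range of marker levels, not a type. Most classes were led by their own markers, such as Mpo and Elane in the granulocyte-monocyte progenitor (GMP)-like class and Siglech in the plasmacytoid dendritic cell (DC)-like class. Neutrophil stages 1 to 4 are successive gates, from cells with primary and secondary granule genes (stage 1, n = 1597) through secondary granule genes alone (stage 2, n = 8665) to low and high levels of late genes such as Retnlg (stage 3, n = 1346, and stage 4, n = 4205). None of the 10 leading genes of the monocyte-progenitor-like class was a marker of its own gate. Those of stage 3 held no secondary granule marker of the gate, but held its late markers Mmp9 and Mmp8. In the class II monocyte-like class they held no monocyte marker, but the conventional DC markers H2-Aa, H2-Eb1, Cd209a, Cd74 and Ciita that its gate also asks for. These names stand for the gate only. The share of cells within 1.5 times of the cut was 0.104% in stage 2, 3.72% in the monocyte-like class, 4.76% in stage 1 and 14.9% in the monocyte-progenitor-like class. Cells called as doublets by simulation were 198 of 1597 in stage 1, 30 of 1095 in the GMP-like class and 393 of 8665 in stage 2. Their part in the levels of stage 1 was not tested.

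The first question was which cells used the replication genes. A cell was called replication-high when, after thinning to 2000 UMIs, it held at least 4 UMIs of the members from at least 3 different members. The call stands in for S phase, but it reads RNA and not DNA synthesis. The call could not be made for 650 of 31209 cells with fewer than 2000 UMIs. Over all cells 32.3% were replication-high in Control (95% interval 31.3 to 33.3), 32.3% in Butyrate (31.1 to 33.4), 36.9% in B12 (35.8 to 37.97) and 29.5% in B12+Butyrate (28.5 to 30.6). Without thinning, with 0.2% of a cell's UMIs as the minimum, these were 29.97%, 29.5%, 35.7% and 28.3%.

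The share depended far more on the class than on the library. GMP-like cells were replication-high in 82.3% to 90.6% of cells, neutrophil stage 1 in 87.2% to 90.5% and monocyte-progenitor-like cells in 84.7% to 95.2%. In cells gated on stem cell and multipotent progenitor genes (HSC/MPP-like) the share was 60.3% in Control, 46.4% in Butyrate, 56.4% in B12 and 64.5% in B12+Butyrate, with only 31 to 84 cells per library. The share was thus intermediate in the stem cell gate, as it was in neutrophil stage 2 at 42.8% to 51.3%. Whether these gates mix different cells or hold many cells near the minimum of the call was not tested. Monocyte-like cells were at 19.7% to 23.1%, plasmacytoid-DC-like cells at 35.7% to 52.8% and basophil-like cells at 33.3% to 52.6%. Of the replication-high cells, stage 2 held 33.4% to 46.7%, beside 22.0% to 32.9% of all cells in which the call could be made. Stage 1 held 11.5% to 16.1% (4.24% to 6.58% of those cells) and monocyte-like cells 9.54% to 12.9% (13.3% to 21.1%). GMP-like cells held 8.58% to 10.5% (3.05% to 4.48%) and monocyte-progenitor-like cells 5.83% to 10.4% (2.09% to 3.95%).

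**Figure D1:**
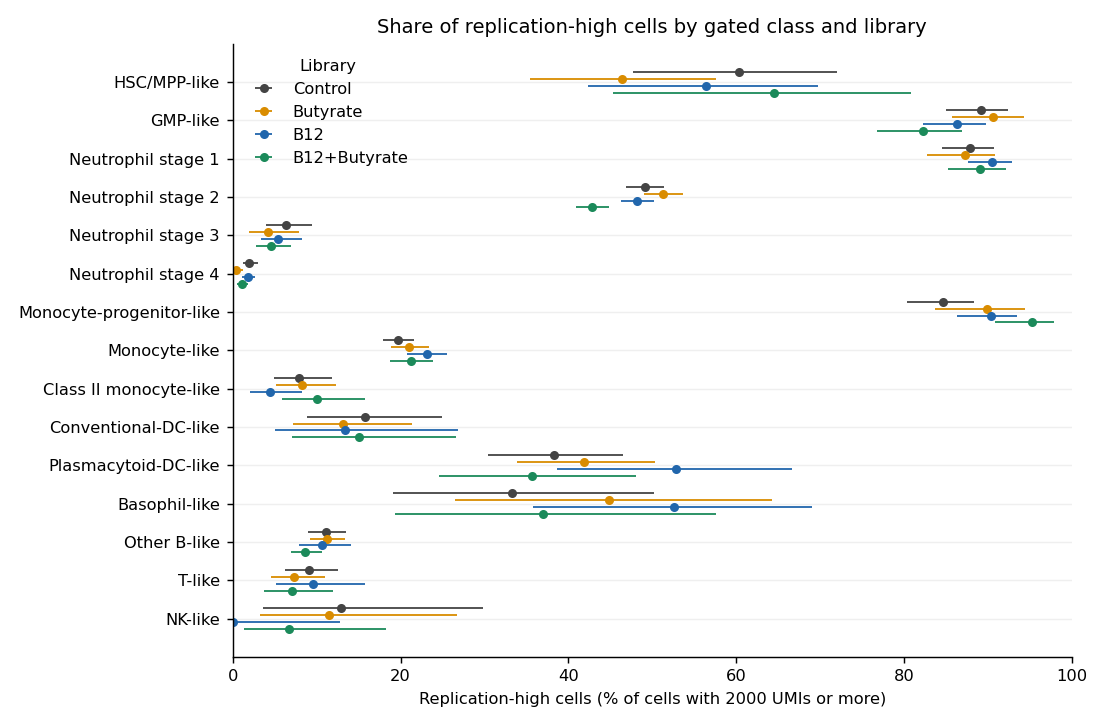
Percent of cells called replication-high (x axis) in each gated class of at least 100 cells (y axis). Points are the 4 libraries and bars the exact binomial 95% intervals, which cover counting error only. GMP-like, neutrophil stage 1 and monocyte-progenitor-like cells lie between 82.3% and 95.2%, and neutrophil stages 3 and 4 at 6.31% or less.

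T-like cells, which mostly rest in marrow, were taken as the background of the call. They were called in 9.04%, 7.34%, 9.56% and 7.06% of cells (Control, Butyrate, B12 and B12+Butyrate) at median depths of 4637.5, 4780, 4789 and 5209.5 UMIs, and in 1.65% to 4.93% without thinning. Their share of cells high for mitosis genes by the same rule was 0% to 1.76%. With thinning, neutrophil stage 3 (4.23% to 6.31%, median depth 9916.5 to 10806 UMIs) and stage 4 (0.345% to 2.00%, 5021 to 5876 UMIs) lay below the T-like share. Class II monocyte-like cells (4.43% to 10.0%) and other B-like cells (8.62% to 11.2%) lay near it. Without thinning the share was 3.74% to 5.41% in stage 3, 4.72% to 9.38% in class II monocyte-like cells and 3.40% to 5.10% in other B-like cells. In stage 4 it was 0.166% to 1.68%, below the T-like share in each library. The place of the other classes against T-like cells thus depended on thinning, and none of these replication-high shares is read as standing above background. The share high for mitosis genes was nevertheless 4.69% to 11.4% in stage 3 and 5.91% to 9.06% in class II monocyte-like cells, above the T-like values, so these classes are not called resting. Free RNA from broken cells was not tested as a source of these UMIs.

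Levels of single members are given as CPM, the UMIs of a gene per 1000000 UMIs of its class and library. They count 3′ ends, are not scaled to transcript length, and are compared here within a gene and not between genes. Pclaf gave 11.2% of the members' UMIs, Pcna 8.64% and Dut 7.09%, whereas Ung gave 0.341%. Of the 15 classes with at least 100 cells, the monocyte-progenitor-like class had the highest mean level over the 4 libraries for 24 of the 39 members, beside 6.51% of all genes at 10 CPM or more. Neutrophil stage 1 was highest for 5 members (1.64% of all genes), HSC/MPP-like for 5 (12.6%) and GMP-like for 2 (8.18%). The highest class was the same in all 4 libraries for 25 members.

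**Figure D2:**
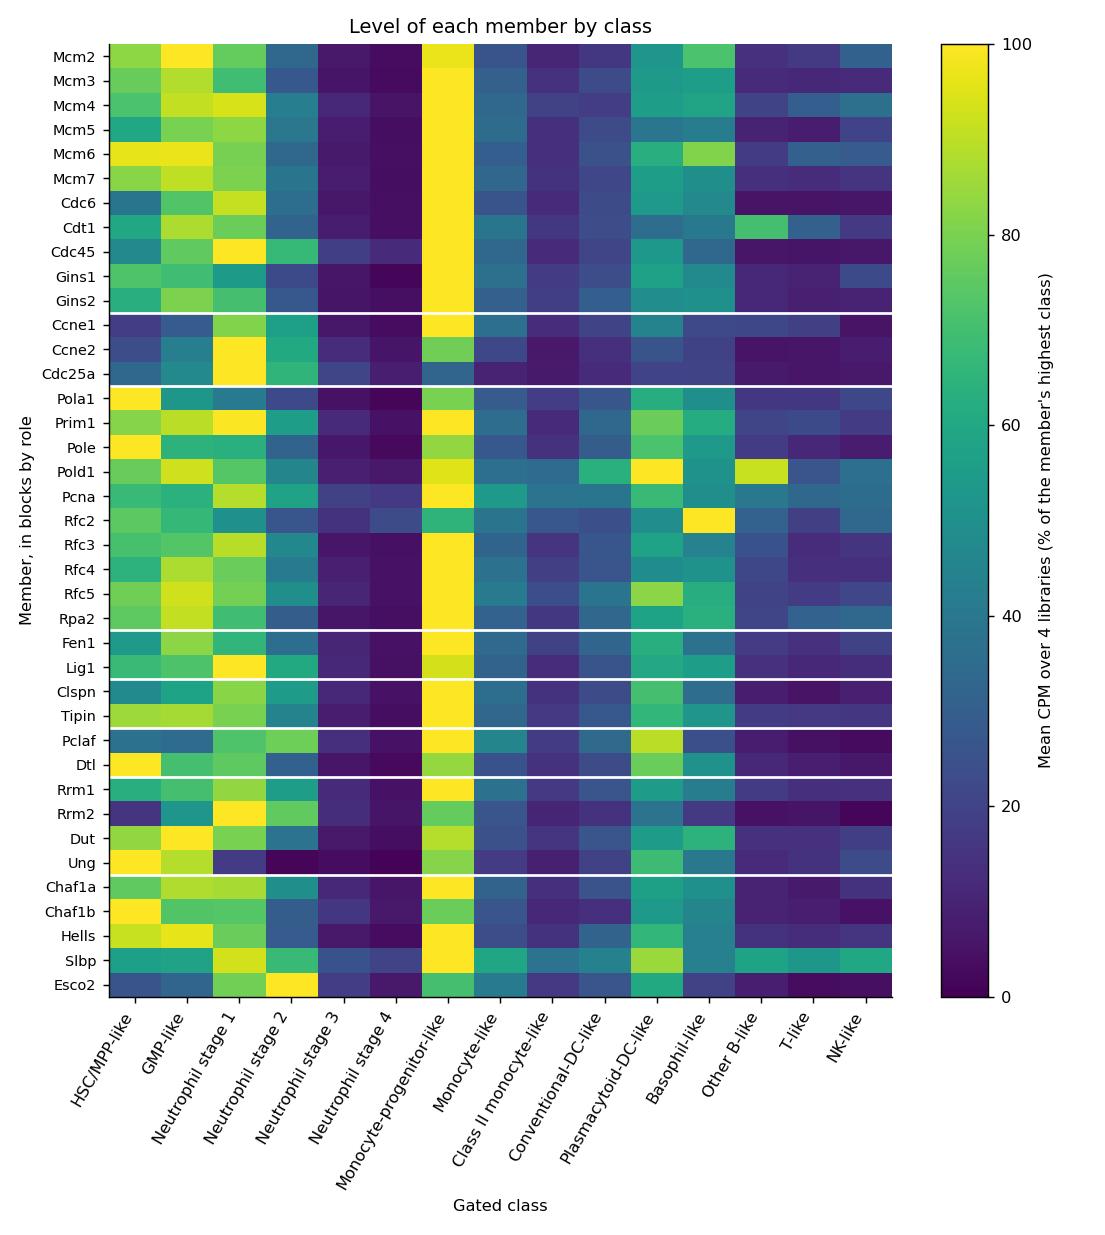
Mean CPM of each member over the 4 libraries in each class, as a percent of that member's highest class (colour). Rows are the 39 members in blocks by role and columns the 15 classes with at least 100 cells. Most rows are brightest in the monocyte-progenitor-like, GMP-like and neutrophil stage 1 columns, and 8 rows are brightest elsewhere: Pola1, Pole, Dtl, Ung and Chaf1b in HSC/MPP-like, Pold1 in plasmacytoid-DC-like, Rfc2 in basophil-like and Esco2 in neutrophil stage 2.

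The licensing and helicase genes were high through the progenitor gates and declined with each neutrophil stage. Mcm6, a subunit of the helicase ring, was at 143, 153, 195 and 214 CPM in HSC/MPP-like cells (Control, Butyrate, B12 and B12+Butyrate), at 153 to 189 in GMP-like cells, at 131 to 162 in stage 1, at 59.2 to 65.5 in stage 2 and at 4.59 to 10.8 in stage 4. Mcm7, another subunit, was at 167, 177, 165 and 165 CPM in GMP-like cells and at 73.1, 77.2, 70.2 and 69.6 CPM in stage 2, so the groups did not overlap. All 11 genes of this role were lower in stage 2 than in stage 1 in each of the 4 libraries. Cdc45, which joins the helicase when origins fire, declined least of them: its log2 ratio of stage 2 over stage 1 was -0.49, against -0.77 to -1.19 for the other members of the role.

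Over the whole list, 36 of 38 measured members were lower in stage 2 than in stage 1 in all 4 libraries, with a median log2 ratio of -0.75, and 60.3% of all genes measured were lower too (median -0.18). From stage 2 to stage 3, 37 of 37 measured members were lower in all 4 libraries (median -1.41), beside 46.4% of all genes (median -0.08). From monocyte-progenitor-like to monocyte-like cells, 39 of 39 were lower in all 4 libraries (median -1.28), beside 44.7% of all genes (median -0.05). Pclaf and Esco2 were the exceptions to the first step, and both were higher in stage 2 in all 4 libraries, as were 22.2% of all genes. Pclaf, which binds the clamp, was at 402, 336, 400 and 387 CPM in stage 1 and at 422, 397, 421 and 394 CPM in stage 2. Esco2, the acetyltransferase that establishes cohesion between sister chromatids, was at 49.9, 48.4, 48.5 and 46.4 CPM in stage 1 and at 61.6, 61.7, 63.1 and 58.7 CPM in stage 2. For Esco2 the stages did not overlap, whereas for Pclaf they overlapped between libraries. Pbk, a mitotic kinase gene next to Esco2 in RefSeq, followed the same course (49.2 CPM in stage 1, 62.1 in stage 2 and 3.56 in stage 4), and the part of reads running between them was not tested.

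**Figure D3:**
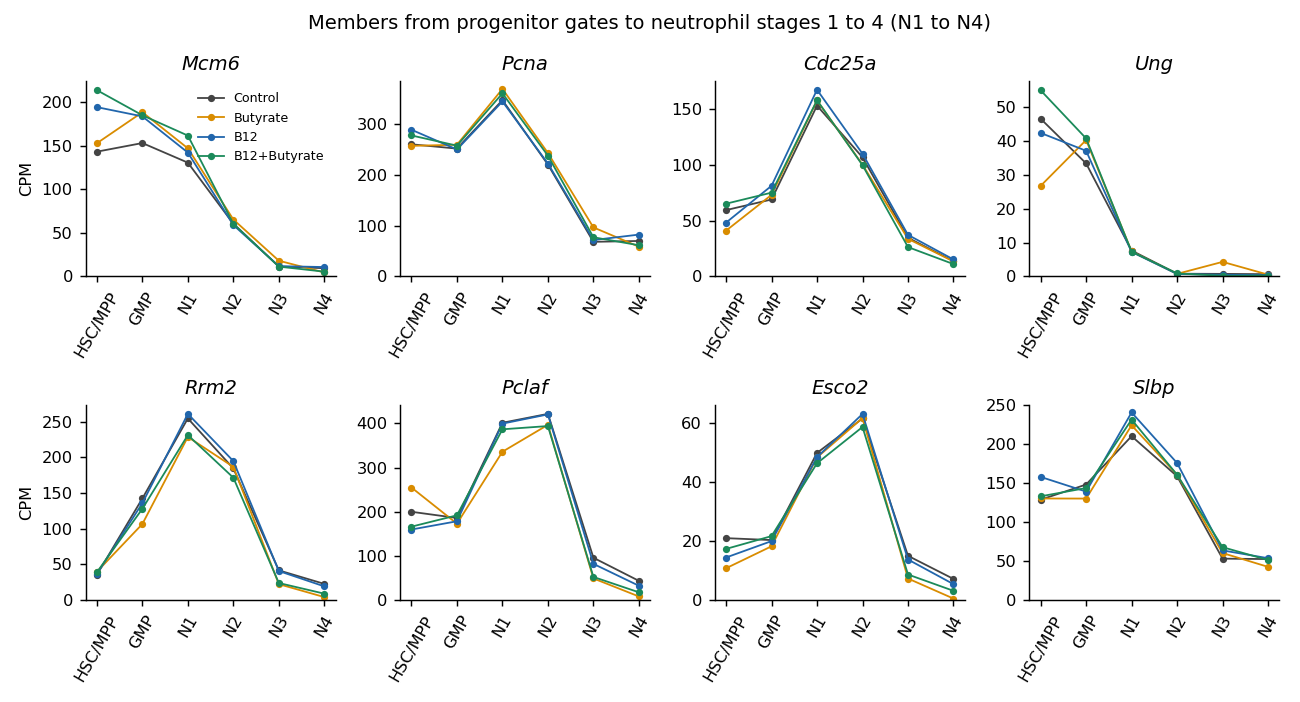
CPM (y axis) of 8 members in the HSC/MPP-like and GMP-like classes and in neutrophil stages 1 to 4 (N1 to N4, x axis), 1 line per library. Mcm6 and Ung decline from the progenitors on, Cdc25a and Rrm2 peak at stage 1, Esco2 peaks at stage 2, and Pcna and Slbp keep at least 42.7 CPM at stage 4.

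The genes of entry to S phase were higher in the first neutrophil stage than in the GMP-like gate before it (log2 0.94 to 1.02). This was not particular to the role, since Pclaf (1.02), Esco2 (0.95) and Rrm2 (0.88) had ratios of similar size. Cdc25a, the phosphatase that activates Cdk2, was at 68.9, 73.0, 81.2 and 75.03 CPM in GMP-like cells and at 153, 157, 167 and 158 CPM in stage 1, without overlap. In monocyte-progenitor-like cells it was only at 48.0 to 54.9 CPM, although most other members were highest there. Camp, a granule gene that RefSeq places next to Cdc25a and a marker of the neutrophil gate, was at 525 CPM in GMP-like cells, 42503 in stage 1 and 80.0 in monocyte-progenitor-like cells. In stage 4 Camp was still at 19508 CPM while Cdc25a was at 11.1 to 15.2. The part of reads running between them was not tested. Ccne2, a cyclin E, was at 25.2 to 37.7 CPM in GMP-like cells and at 65.2 to 83.9 in stage 1. Ccne1, the other cyclin E, was at 8.06 to 12.4 CPM and 27.1 to 31.9 CPM in the same classes. From GMP-like cells to stage 1 the members had no common direction: 16 of 39 were higher and 18 lower in all 4 libraries, beside 20.2% and 68% of all genes.

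Among the nucleotide genes, the subunits of ribonucleotide reductase, which makes deoxynucleotides, did not move together. Rrm2, the subunit that limits the enzyme, was at 35.6, 39.8, 36.6 and 39.1 CPM in HSC/MPP-like cells, at 107 to 143 in GMP-like cells and at 229 to 261 in stage 1. Rrm1, the large subunit, was already at 106 to 116 CPM in HSC/MPP-like cells and reached 141 to 150 CPM in stage 1. The ranges of Rrm2 in HSC/MPP-like cells, GMP-like cells and stage 1 did not overlap. Dut and Ung both keep uracil out of DNA, and they parted in the neutrophil lineage. Dut, which destroys dUTP, was at 388 to 456 CPM in GMP-like cells and still at 323 to 368 in stage 1. Ung, the glycosylase that cuts uracil out, was at 33.4, 40.3, 37.1 and 40.8 CPM in GMP-like cells, at 7.66, 7.39, 7.26 and 7.31 in stage 1 and at 0.816, 0.769, 0.729 and 0.903 in stage 2. Its log2 ratio of stage 1 over GMP-like cells was -1.46, the lowest of the 39 members. At the minimum of 4 UMIs, 87.2% to 90.5% of stage 1 cells were replication-high. In monocyte-progenitor-like cells Ung was at 29.3 to 39.4 CPM. RefSeq places Alkbh2 across part of Ung, and Alkbh2 was at 9.96 CPM in GMP-like cells and 1.94 in stage 1, and the part of shared reads was not tested.

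Of the polymerase group, Pcna, the clamp, followed the progenitor pattern with a remainder in resting cells. Pcna was at 347, 369, 345 and 361 CPM in stage 1, at 58.6 to 82.5 in stage 4 and at 120, 123, 174 and 122 CPM in T-like cells. Pola1, the catalytic subunit of the primer-making polymerase, was highest in HSC/MPP-like cells at 376, 307, 433 and 525 CPM and was at 159 to 179 CPM in stage 1. For long genes such as Pola1 the sources used here do not say whether intronic reads were counted. T-like cells held more than 25% of the highest class's level for 7 members (Slbp, Pcna, Rpa2, Mcm6, Cdt1, Mcm4 and Pold1), and stage 4 held less than 5% for 26 members.

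Pold1 and Rfc2 left the pattern of the list. Pold1, the catalytic subunit of polymerase delta, was at 39.8, 53.8, 36.0 and 52.0 CPM in plasmacytoid-DC-like cells and at 37.9, 39.2, 43.5 and 45.7 in other B-like cells, a class whose replication-high share lay near the T-like share with thinning. Its range in monocyte-progenitor-like cells, 36.8 to 50.1 CPM, overlapped both. It was at 10.9 to 13.1 CPM in T-like cells. Spib, the next gene beside Pold1 in RefSeq and a transcription factor of B cells and plasmacytoid DCs, was at 96.6 to 138 CPM in plasmacytoid-DC-like cells, at 98.6 to 115 in other B-like cells and at 0 to 0.909 in T-like cells. Rfc2, a loader of the clamp, was at 169, 180, 201 and 220 CPM in basophil-like cells and was higher in stage 4 (40.8 to 50.5 CPM) than in stage 3 (24.2 to 31.1), in all 4 libraries, as were 35.8% of all genes and no other of the 20 members measured there. Its neighbour Lat2, an adaptor protein of mast cells and B cells, was at 99.4 to 154 CPM in basophil-like cells and at 3.43 to 4.59 CPM in stage 4. The part of reads running between these neighbours was not tested. Cdt1 was also high in other B-like cells, at 47.9, 62.3, 63.5 and 67.4 CPM, against 24.1 to 28.8 in T-like cells.

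In the lagging-strand and fork groups, Lig1, the ligase that seals Okazaki fragments, was at 159 to 164 CPM in stage 1 and 1.62 to 10.97 in stage 4. Fen1, the nuclease that trims them, was at 54.1 to 62.4 CPM in stage 1 and 2.16 to 5.84 in stage 4. Tmem258, which overlaps Fen1 in RefSeq, was at 175 and 66.2 CPM, and the part of shared reads was not tested. Tipin and Clspn, which protect stalled forks, were at 146 to 157 and 86.4 to 89.1 CPM in stage 1. Both were lower in stage 2, Tipin at 79.3 to 88.5 CPM and Clspn at 56.5 to 61.3. Of the chromatin group, Slbp, which binds histone messenger RNA, kept 110 to 139 CPM in T-like cells and 42.7 to 53.8 in stage 4. Hells, a chromatin remodeller, was at 164 to 185 CPM in GMP-like cells and 51.05 to 54.9 in stage 2, the widest step between stages 1 and 2 on the list (log2 -1.26).

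The second question was how the members varied between cells with and without mitosis genes. Cells were split by the same rule on 32 mitosis genes that are not members. For each member the replication call was made from the other 38, so that a member did not place itself. Over all cells 12.2% to 13.8% were high for replication genes only, 17.3% to 23.1% for both, 8.70% to 10.5% for mitosis genes only and 52.6% to 61.3% for neither. Each of the 39 members was higher in replication-only cells than in cells low for both in all 4 libraries, with a median log2 ratio of 2.42. The call selects cells by the other members, so this describes how the members go together and is not a test. Depth moved with it: median UMIs were 18745 to 21035 in replication-only cells and 8235 to 9008 in cells low for both.

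The contrast of mitosis-only with replication-only cells is also set in part by the split, since the former are low and the latter high for the other 38 members, whereas most other genes took no part in it. It is a description of the order among members and is not a test. In cells high for mitosis genes only, 37 of 39 members were lower than in replication-only cells in all 4 libraries (58.5% of all genes measured), with a median log2 ratio of -1.82. Pola1 was at 263 to 277 CPM in replication-only cells and 23.3 to 33.8 in mitosis-only cells (log2 -2.86). Hells was at 184 to 203 and 20.6 to 22.0 CPM (-2.72), and Mcm6 at 168 to 207 and 19.2 to 23.8 CPM (-2.64). These were the 3 largest declines, and none of the ranges overlapped. Pclaf and Esco2 were higher in mitosis-only cells in all 4 libraries, as were 25.1% of all genes. Pclaf was at 272 to 294 CPM in replication-only cells, 631 to 686 in cells high for both and 341 to 351 in mitosis-only cells. Esco2 was at 21.6 to 24.3, 82.8 to 99.6 and 35.0 to 43.6 CPM in the same order.

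Between these ends, 7 members were higher in cells high for both than in replication-only cells in all 4 libraries (25.7% of all genes): Ccne1, Slbp, Clspn, Rrm1, Rrm2, Pclaf and Esco2. Rrm2 was at 150 to 177 CPM in replication-only cells and 259 to 288 in cells high for both, whereas Hells was at 88.7 to 104 in the latter. In neutrophil stage 2 alone the counts were 37 of 39 lower in mitosis-only cells and 4 higher in cells high for both (36.1% and 40% of all genes). In the monocyte lineage (monocyte-progenitor-like and monocyte-like cells) they were 37 and 6 (32.5% and 20.9%). In stage 2, Hells was at 167 to 198 CPM in replication-only cells and 11.3 to 14.6 in mitosis-only cells, and Esco2 at 35.8 to 39.2 and 41.9 to 49.9. Pclaf was at 337 to 380 and 351 to 367 CPM there, which overlapped.

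**Figure D4:**
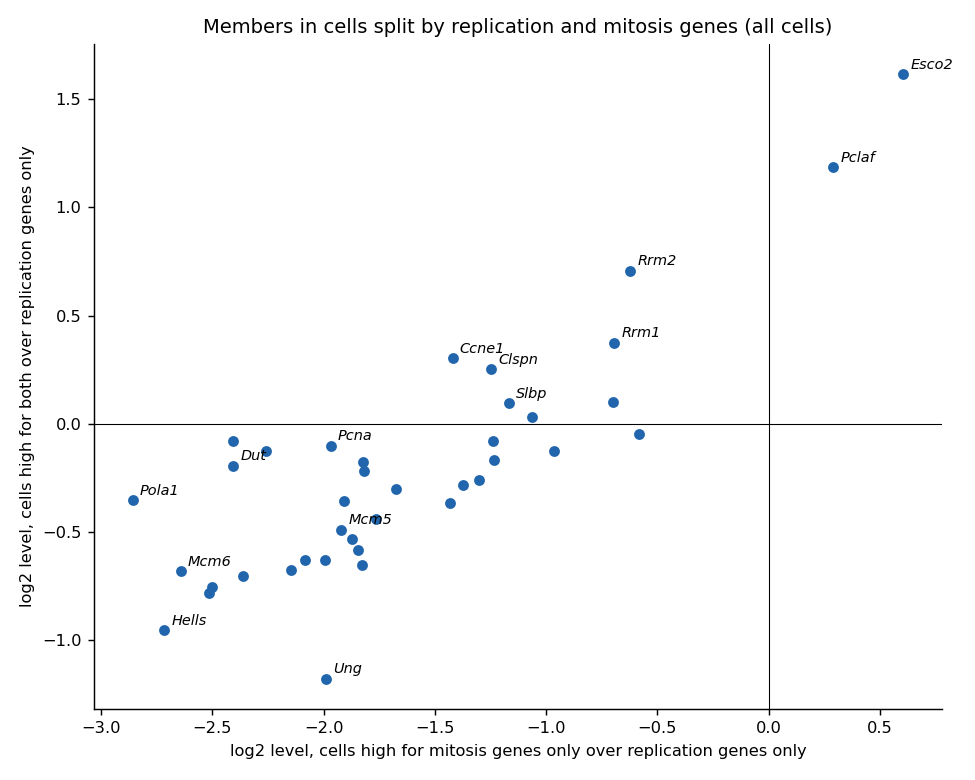
Each point is a member, from the mean CPM over the 4 libraries in all cells. The x axis gives the log2 ratio of cells high for mitosis genes only over cells high for replication genes only, and the y axis that of cells high for both over replication genes only, with a pseudocount of 10 CPM. Pclaf and Esco2 stand alone at the upper right, and Pola1, Hells and Mcm6 lie at the left.

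Readouts outside the members were compared between replication-high and replication-low cells of a class. In stage 2, a sum over 68 replication-dependent histone genes, whose messages are made in S phase, was at 5641, 5900, 6409 and 6339 CPM in replication-high cells and at 1909, 2033, 2488 and 2043 CPM in replication-low cells. In HSC/MPP-like cells Kit, the receptor used in the sort, was lower in replication-high cells in Control (232 against 421 CPM), Butyrate (177 against 366) and B12+Butyrate (251.4 against 345), and not in B12 (311 against 296). Replication-high cells were also deeper: median UMIs in stage 2 were 17811 to 19945 against 13490 to 14432. Cells called as doublets by simulation made up 7.88% to 11.6% of replication-high and 4.31% to 4.97% of replication-low cells over all classes, and their part was not tested beyond the values given in the closing section.

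A further 61 genes of the replication pathway, listed from its known parts, were read in the same split. In stage 2, 51 of 58 measured were at least 1.2-fold higher in replication-high cells in all 4 libraries and 1 was lower, against 26.3% and 9.27% of genes outside the members. The nucleotide enzymes Tyms (median log2 ratio 2.39) and Tk1 (2.04) and the chromatin factor Atad2 (2.25) differed most. E2f1 (1.48), E2f7 (1.92) and E2f8 (1.41) were all higher, as was Gmnn (1.98), the inhibitor of Cdt1. Samhd1, which degrades deoxynucleotides, was the 1 gene that was lower (-0.39). Orc4 (0.06), Top1 (-0.05), Ccnd3 (0.02) and Cdkn1b (0.02) did not reach 1.2-fold. In monocyte-like cells 49 of 60 were higher and 2 lower (20.8% and 15.3% of other genes), and in HSC/MPP-like cells 40 of 60 and 2 (7.4% and 5.47%).

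The third question was whether the members differed between the treatments. The 4 comparisons were B12 over Control, Butyrate over Control, B12+Butyrate over B12 and B12+Butyrate over Butyrate. They share libraries, so they are not independent. Over all cells the share of replication-high cells was 1.14 times higher in B12 than in Control (log2 0.19, 95% interval 0.13 to 0.25) and 0.8004 times as high in B12+Butyrate as in B12 (log2 -0.32, -0.39 to -0.26). In Butyrate the share was at the Control level (log2 -0.00, -0.07 to 0.07). Of the members, 34 of 38 measured were higher in B12 than in Control over all cells, with a median log2 ratio of 0.11 beside -0.06 for all genes. At least 1.2-fold higher were 2 of them, beside 1.59% of all genes. In B12+Butyrate 37 of 38 were lower than in B12 (median -0.13, all genes -0.02), and 1, Dut, was lower by at least 1.2-fold (1.4% of all genes).

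The makeup of the libraries differed with these shares. Stage 2 made up 22.0% of callable cells in Control, 26.5% in Butyrate, 32.9% in B12 and 32.2% in B12+Butyrate, and other B-like cells 9.26%, 13.8%, 5.15% and 12.6%. With the same makeup of the 17 classes in every library, the share was 32.7% in Control, 33.4% in Butyrate, 33.2% in B12 and 30.8% in B12+Butyrate. The B12 library was then level with Control and Butyrate (log2 0.023 over Control), and the B12+Butyrate library stayed lowest.

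The B12+Butyrate library had the lowest share in neutrophil stage 2, and also in GMP-like cells (82.3%, others 86.3% to 90.6%), plasmacytoid-DC-like cells (35.7%, others 38.3% to 52.8%) and other B-like cells (8.62%, others 10.7% to 11.2%). It had the highest share in HSC/MPP-like (64.5%), monocyte-progenitor-like (95.2%) and class II monocyte-like cells (10.0%). In plasmacytoid-DC-like, other B-like and HSC/MPP-like cells the intervals of its ratios over B12 and over Butyrate included 0. The interval over B12 also included 0 in GMP-like cells. That over Butyrate also included 0 in monocyte-progenitor-like and class II monocyte-like cells. In stage 2 the share was 49.1% in Control (46.8 to 51.4), 51.3% in Butyrate (49.0 to 53.7), 48.2% in B12 (46.3 to 50.2) and 42.8% in B12+Butyrate (40.9 to 44.8). The interval of B12+Butyrate did not overlap the other 3. The log2 ratio was -0.17 over B12 (-0.26 to -0.08) and -0.26 over Butyrate (-0.35 to -0.17). Median depth in stage 2 was 17273 UMIs in B12+Butyrate and 16010 to 17222 in the others. The share high for mitosis genes was also lowest there, at 52.5% beside 56.7% to 58.9%.

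At the level of genes, 36 of 37 measured members were lower in B12+Butyrate than in Butyrate in stage 2, with a median log2 ratio of -0.12, beside -0.01 for all genes. None of the 37 passed 1.2-fold (0.655% of all genes were lower by that much). Mcm5 had the lowest ratio, at 59.4, 66.1, 54.3 and 55.3 CPM in Control, Butyrate, B12 and B12+Butyrate (log2 -0.22 over Butyrate). Rrm1 was at 100, 107, 91.7 and 91.2 CPM. For both genes B12 and B12+Butyrate were close, below Control and Butyrate. Hells, at 52.7 CPM in Butyrate and 53.0 in B12+Butyrate, was the highest (log2 0.01). The level within replication-high cells is limited by their choice, since the cells were picked by a minimum of UMIs of the other members. Within replication-high cells of stage 2 the members had no common direction: 21 of 38 members were higher and 17 lower in B12+Butyrate than in Butyrate, with a median of 0.01.

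In GMP-like cells the share was 82.3% in B12+Butyrate and 90.6% in Butyrate (log2 -0.14, -0.25 to -0.03), and with at least 8 UMIs for a call this ratio was 0.11. Levels in GMP-like cells and stage 1 had medians near 0: the median log2 ratio of the members lay between -0.01 and 0.02 in the 8 comparisons of these classes. Butyrate over Control gave 1 member at least 1.2-fold higher and 4 lower in GMP-like cells (4.65% and 4.78% of all genes), and 1 higher in stage 1 (1.63%). The members with the widest ratios were Rrm2 in GMP-like cells (107 CPM in Butyrate and 143 in Control, log2 -0.39) and Mcm5 in stage 1 (135 CPM in Butyrate and 109 in Control, log2 0.29). Mcm6 in GMP-like cells was at 153 CPM in Control and 184 to 189 CPM in the other 3 libraries. The mitosis genes differed more than the members in GMP-like cells, where 29 of 32 were lower in B12 than in Control (median -0.19).

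In monocyte-like cells most members differed in level between B12 and Control. In B12, 36 of 37 measured members were higher than in Control, with a median log2 ratio of 0.29, beside -0.00 for all genes. At least 1.2-fold higher were 19, against 2.56% of all genes. Dut had the highest ratio, at 83.4 CPM in Control (79.7 to 87.2), 102 in Butyrate (97.2 to 107), 127 in B12 (121 to 132) and 113 in B12+Butyrate (108 to 119), a log2 ratio of 0.55 for B12 over Control. Control was lowest and B12 highest, with intervals apart. Ccne2 followed, at 12.4 CPM in Control and 22.0 in B12 (0.51). Pcna was at 183, 213, 235 and 236 CPM, and Mcm6 at 41.0, 57.5, 57.5 and 63.4 CPM. Dtl, an adaptor of the ligase that destroys Cdt1, was the 1 member that was lower, at 38.6 CPM in Control and 35.8 in B12 (log2 -0.09, intervals overlapping).

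**Figure D5:**
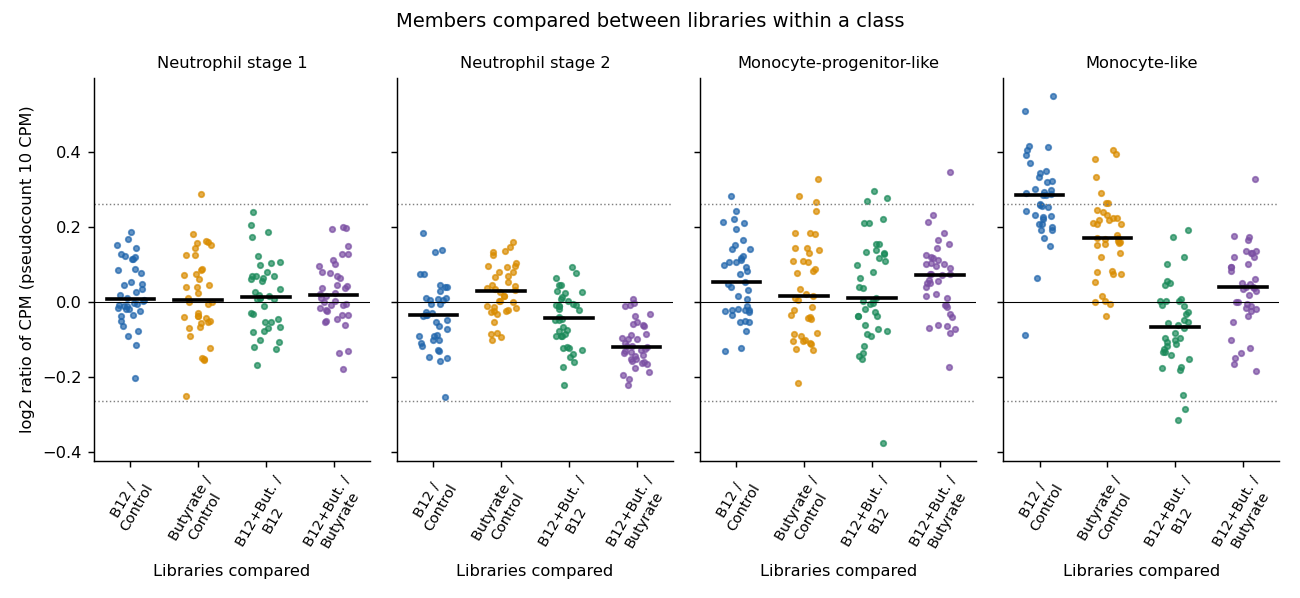
Log2 ratio of CPM between libraries (y axis, pseudocount 10 CPM) for each measured member, in 4 classes. The x axis names the libraries compared (But. is Butyrate), black bars are medians, and dotted lines mark 1.2-fold. In monocyte-like cells nearly all members lie above 0 for B12 over Control and Butyrate over Control, and in neutrophil stage 2 nearly all lie below 0 for B12+Butyrate over Butyrate.

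Control was the lowest library for Dut, Pcna, Mcm6 and Slbp in this class. Butyrate over Control gave 35 of 38 members higher, with a median of 0.17 and 7 at least 1.2-fold higher (5.08% of all genes). B12+Butyrate over B12 gave 11 of 38 higher (median -0.06), with 2 at least 1.2-fold lower (3.3%). B12+Butyrate over Butyrate gave 25 of 38 higher (median 0.04), with 1 at least 1.2-fold higher (0.953%). The share of replication-high cells in the class was 19.7% in Control (17.9 to 21.7), 21.1% in Butyrate (18.9 to 23.4), 23.1% in B12 (20.8 to 25.6) and 21.2% in B12+Butyrate (18.7 to 23.9). The intervals overlapped, and the log2 ratio of B12 over Control was 0.23 (0.03 to 0.43). The level in replication-high monocyte-like cells, picked by the same minimum, depended on that minimum: 37 of 39 members were higher in B12 than in Control, with a median of 0.21 and 12 at least 1.2-fold higher (4.53% of all genes). There Dut was at 263 CPM in Control and 355 in B12, and Pcna at 370 and 458. When a cell needed 8 UMIs to be called, 22 were higher and 17 lower, 2 by at least 1.2-fold in each direction, with a median of 0.052.

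The mitosis list had no common direction for B12 over Control in this class: 16 of 32 mitosis genes were higher in B12 than in Control, with a median of 0.00. In B12+Butyrate 2 of 32 were higher than in Butyrate, with a median of -0.23. Median depth was 12140 UMIs in Control and 11696 in B12. The handling genes were at 5075 CPM in Control and 6521 in B12 in replication-low cells of the class, and the primary granule genes at 351 and 247 CPM. Their part in the result was not tested.

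In monocyte-progenitor-like cells the share was 84.7% in Control (80.4 to 88.3), 89.9% in Butyrate, 90.3% in B12 and 95.2% in B12+Butyrate (90.8 to 97.9), lowest in Control. Members there had a median log2 ratio of 0.05 for B12 over Control and 0.07 for B12+Butyrate over Butyrate. Over the whole monocyte lineage, 39 of 39 members were higher in B12 than in Control (median 0.26), with 18 at least 1.2-fold higher (3.17% of all genes). B12+Butyrate over Butyrate gave 38 of 39 higher (median 0.19), with 7 at least 1.2-fold higher (1.22%). The makeup of the lineage differed too: monocyte-progenitor-like cells were 339 of 2152 callable cells in Control, 139 of 1431 in Butyrate, 289 of 1529 in B12 and 168 of 1168 in B12+Butyrate.

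HSC/MPP-like cells were few. There 29 of 38 members were higher in B12+Butyrate than in Butyrate (median 0.31), with 21 at least 1.2-fold higher, where 23.5% of all genes were, from 31 and 85 cells. Hells was at 144, 120, 179 and 223 CPM there. In stage 4 and T-like cells the replication-high shares did not stand above background, and the levels were low. In stage 4, 11 of 11 measured members were lower in Butyrate than in Control (median -0.67), with 7 at least 1.2-fold lower (8.05% of all genes), and Pclaf was at 43.7, 8.38, 32.7 and 17.8 CPM. The mitosis genes measured there were lower too (17 of 17, median -0.61). Only 2 of 580 stage 4 cells were replication-high in Butyrate, against 23 of 1151 in Control. B12+Butyrate over B12 gave 13 of 13 members lower in stage 4 (median -0.44), with 9 at least 1.2-fold lower (7.44%). A gene was measured at 10 CPM or more in either library, so genes near this floor could enter through the higher library alone. Pclaf, at 8.38 CPM in Butyrate, entered the comparison with Control in this way. The counts of direction in stage 4 are thus set in part by the filter and are not a test. In T-like cells Pclaf was at 13.5, 1.85, 23.6 and 55.5 CPM and Rrm2 at 2.60, 4.33, 9.17 and 37.3, highest in B12+Butyrate for both genes. These values came from 366, 311, 142 and 182 cells with median depths of 4637.5 to 5209.5 UMIs. Cells high for mitosis genes numbered 4, 0, 0 and 3 there, and their part in the levels was not tested.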

How the data were processed

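Single-cell RNA libraries (10x 3′ chemistry, UMIs) of 4 groups were measured, 1 library each. The deposited values are raw UMI counts per gene and cell. The file headers name Cell Ranger 7.1.0, and the submitters' processing notes name GRCm39. The sources used here do not say whether intronic reads were counted. Cells were filtered as stated in the report. Marker UMIs gated the classes, with levels set after the markers' distributions were seen. Doublets were called by simulation and kept, and their removal is an alternative. Levels are summed UMIs per 1000000 of a class and library (CPM). A gene was measured in a comparison at 10 CPM or more in either library, ratios used a pseudocount of 10 CPM, and 1.2-fold marked a call. Named genes were the 2 most abundant members per role, the highest and lowest ratio of each comparison, and exceptions to a pattern chosen after their values were seen. The members and lists were chosen with earlier results of these data known. Shares have exact binomial (Clopper-Pearson) and levels exact Poisson 95% intervals, for counting error only. The calls were tested on simulated data. No test between libraries was made.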

Additional observations from a re-analysis of the deposited data

Results flagged for a closer look

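In these comparisons the same treatment went with opposite directions in the absence and in the presence of the other treatment. Each rests on single libraries, and the difference between the directions was not tested. Over all cells, the log2 ratio of the replication-high share was 0.19 for B12 over Control and -0.13 for B12+Butyrate over Butyrate. In the neutrophil lineage (stages 1 to 4) it was 0.19 for Butyrate over Control and -0.22 for B12+Butyrate over B12. With the same makeup of stages in every library the lineage share was 37.2% in Control and 37.7% in Butyrate, and these ratios were 0.021 and -0.14. In plasmacytoid-DC-like cells (150 in Control, 148 in Butyrate, 53 in B12 and 71 in B12+Butyrate) the members' median log2 ratio was 0.21 for B12 over Control and -0.28 for B12+Butyrate over Butyrate. In the same class it was 0.23 for Butyrate over Control and -0.20 for B12+Butyrate over B12. The intervals of the ratios of its replication-high share included 0 in all 4 comparisons. In Early-B-like cells (18 in Control, 25 in Butyrate, 6 in B12 and 19 in B12+Butyrate) the median was 0.25 for Butyrate over Control and -0.46 for B12+Butyrate over B12. All genes varied widely in these small classes. In each direction, 35.1% to 43.9% of them passed 1.2-fold in these Early-B-like comparisons. In the plasmacytoid-DC-like ones 13.1% to 22.7% did.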

How the results depend on the processing

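No paired analysis was possible because each group is 1 library. Of 360 recomputed log2 ratios of the replication-high share, 344 stayed within the counting interval of the value reported and 16 did not. The sign was opposite in 29, of which 28 had a reported interval that includes 0. Of 50 recomputed medians of the members' ratios, 47 stayed within 1.5 times of the value reported. Both recomputed medians in replication-high cells moved further, and 186 of 536 recomputed shares left their counting interval. The count of members lower in mitosis-only cells stayed within 1.5 times in its 3 recomputations. In the order Control, Butyrate, B12 and B12+Butyrate, the share over all cells was 36.9%, 36.9%, 40.4% and 33.3% with at least 3 UMIs, and 19.1%, 18.7%, 22.8% and 18.0% with at least 8. It was 35.9%, 35.5%, 42.2% and 32.9% with cells thinned to 5000 UMIs, and 29.97%, 29.5%, 35.7% and 28.3% with no thinning. Without the 3 members with the most UMIs it was 26.8%, 27.0%, 31.3% and 24.9%, and without the 5% of cells with the most UMIs 29.5%, 29.7%, 34.4% and 26.7%. With doublet calls removed it was 30.7% in Control, 35.7% in B12 and 28.4% in B12+Butyrate. With the same makeup of the 17 classes, an alternative chosen after seeing the data, it was 33.4% in Butyrate, 33.2% in B12 and 30.8% in B12+Butyrate, and the log2 ratio was 0.023 for B12 over Control and -0.11 for B12+Butyrate over B12. The ratio of B12 over Control over all cells was 0.13 with at least 3 UMIs and 0.25 with no thinning. With at least 8 UMIs it was 0.43 in the monocyte lineage and 0.58 in monocyte-like cells, and B12+Butyrate over Butyrate was -0.052 over all cells and 0.11 in GMP-like cells, the 1 change of sign among ratios whose interval excludes 0. The cause was not tested.

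Counts of members called depended on the settings. Over all cells the 2 members higher in B12 than in Control became 4 with a pseudocount of 1 CPM, 4 with the mean of per-cell CPM, 4 without the 5% of cells with the most UMIs, 5 with median-of-ratios scaling (median log2 0.17) and 0 at 1.5-fold. The 1 member lower in B12+Butyrate than in B12 became 5 with a pseudocount of 1 CPM, 3 with per-cell CPM (median -0.19), 2 without the 5% of cells, 0 with median-of-ratios scaling and 0 at 1.5-fold. In neutrophil stage 2 the 0 members lower in B12+Butyrate than in Butyrate became 3 with a pseudocount of 1 CPM and 4 with per-cell CPM (median -0.19). For B12 over Control, the 18 members of the monocyte lineage became 29 with a stricter gate and 0 at 1.5-fold. The 19 in monocyte-like cells became 29 with a pseudocount of 1 CPM, 11 with per-cell CPM and 0 at 1.5-fold. In replication-high cells called with at least 8 UMIs, the median was 0.052 for B12 over Control in monocyte-like cells and 0.0084 for B12+Butyrate over Butyrate in stage 2. Depth limits the classes of few cells, where counting intervals are wide.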
